A study of Homo sapiens with 18 samples.

Results

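The comparison described here sets NAT10 knockdown against control after 1.5 h of actinomycin D, in H1, an established line of human embryonic stem cells. It takes the 6 libraries that the labels place at 1.5 h, 3 with a control shRNA and 3 with an shRNA against NAT10, of 18 libraries in the series. The other 12 were collected at 0 h and at 3.5 h. Both groups are described alike but for the shRNA. The cells were transduced with a lentivirus that also carries GFP, GFP-positive cells were enriched, and they were expanded in TeSR-E8 with puromycin. The control is thus a transduced and selected line and not parental H1. The labels do not say how many shRNA sequences were used, nor whether a group's libraries are separate cultures. The p-values therefore reflect the spread between libraries alone, which the gene-wise test estimates over all 18, and that spread may be technical.

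NAT10 is the acetyltransferase that places N4-acetylcytidine (ac4C) on ribosomal RNA, on transfer RNA with the adaptor THUMPD1, and on messenger RNA. Actinomycin D intercalates into DNA and stops transcription, so what is sequenced afterwards is RNA that was made earlier and has not yet been degraded. Each library is polyadenylated RNA, and a level at 1.5 h therefore holds both how much of a transcript there was when the drug was added and how much of it was lost since. The question set by the design is how the RNA that survives the early block differs between the genotypes.

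The 6 libraries held 15258281 to 15519197 counts. Levels are given as CPM (counts scaled to library size) with the TMM method, so that a gene is read relative to the typical gene of its library, and changes are log2 fold changes of knockdown over control with an approximate standard error (SE). Unless another test is named, p-values are from edgeR's quasi-likelihood test with Benjamini-Hochberg adjustment over all 16760 genes tested, at a threshold of 0.05. The core markers of the labelled cell type were present in both groups, with POU5F1 at 487 and 449 CPM and LIN28A at 2288 and 1617 CPM in control and knockdown.

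NAT10 (ENSG00000135372, chr11:34105602-34147670, GRCh38) was depleted in all 3 knockdown libraries. The 3 control libraries held 223, 225 and 233 CPM of it, and the 3 knockdown libraries 18.8, 18.8 and 17.2 CPM. The groups were far apart, with a mean 12.4-fold lower in knockdown and a log2 fold change of -3.63 ± 0.0656 (SE, adjusted p = 4.44e-22). THUMPD1, its tRNA adaptor, went from 73.9 ± 2.0 to 51.7 ± 2.03 CPM (mean ± SD of 3 libraries), with a log2 fold change of -0.52 ± 0.0706 (adjusted p = 1.41e-06).

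Less polyadenylated RNA was recovered per unit of spike-in from the knockdown cells. The ERCC spike-in is a set of synthetic transcripts, added here after the RNA had been purified. Gene counts per ERCC count were 674, 614 and 643 in the control libraries and 417, 338 and 455 in the knockdown libraries. The groups did not overlap, and the knockdown mean was 62.6% of control (p = 0.1 in a two-sided exact permutation test, which cannot give less with 3 against 3). The same ratio stood at 56.7% at 0 h and 43.7% at 3.5 h, from other libraries. Because the spike-in followed purification, this ratio holds the share of polyadenylated RNA and the amount of purified RNA together, and in bulk samples fewer cells and less RNA per cell cannot be told apart.

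The surviving RNA was also composed differently. Genes of mitochondrial DNA took 4.4%, 4.38% and 4.48% of the gene counts in control and 4.95%, 4.81% and 4.84% in knockdown. That is 0.449 percentage points more in knockdown, in groups that did not overlap. Genes of the cytosolic ribosomal proteins, the protein part of the ribosome, took 5.22 ± 0.0988% in control and 4.76 ± 0.107% in knockdown (SD, n = 3 each). Long noncoding RNA genes took 0.990 ± 0.0213% and 1.124 ± 0.0273%, and the 100 genes with most counts took 19.8 ± 0.138% and 19 ± 0.116%. Each of these 4 shares gave p = 0.1 in an exact two-sided permutation test, again the smallest possible.

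Of the 16760 tested genes 9148 passed the test, about evenly in both directions. Higher in knockdown were 4764 genes (28.4% of those tested) and lower were 4384 (26.2%). The larger changes were mostly upward, with 1847 genes higher at least 2-fold and 415 lower at least 2-fold. Scaling the libraries to their ERCC counts instead moved the median log2 fold change of all tested genes from 0.03 to -0.52, and left 1375 genes higher (8.2%) and 8331 lower (49.7%), so the share of calls that were higher went from 52.1% to 14.2%. Changes below are relative to the typical transcript, and a direction that turns under ERCC scaling is named where it is given. Counts of list members are to be read beside the share over all genes with the same setting. With no filter on low counts that share was 12.2% higher and 10.8% lower of 39992 genes.

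**Figure D1:**
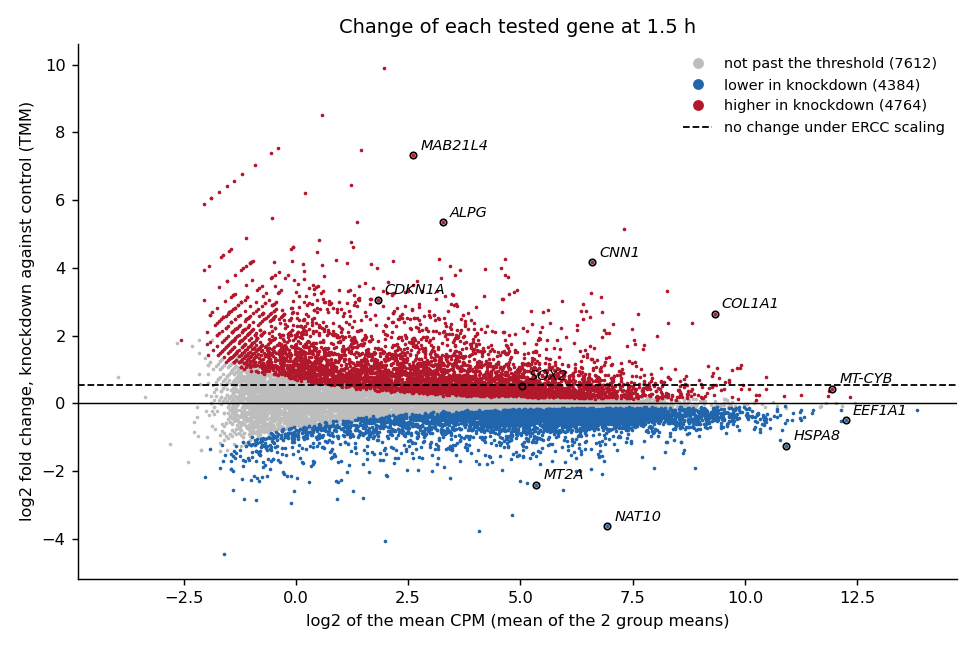
Each point is 1 tested gene, with the log2 of its mean CPM on the x axis and its log2 fold change at 1.5 h (TMM) on the y axis. Red points (4764) were higher and blue points (4384) lower in knockdown, and the dashed line marks where a gene would show no change under ERCC scaling. NAT10 lies at -3.63 and CNN1 at 4.16.

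Transcripts of contractile and matrix proteins were among those with large rises in knockdown cells. CNN1, which encodes calponin, an actin-binding protein of smooth muscle cells (chr19:11538717-11550323), held 8.91, 11.1 and 10.9 CPM in control against 181, 188 and 182 CPM in knockdown. The knockdown mean was 17.8-fold higher (log2 fold change 4.16 ± 0.103, adjusted p = 2.73e-19). CNN1 was named by a rule that requires groups that do not overlap, so their separation adds no support. The same holds below for genes named for the largest changes in their list or in CPM. How often the groups separate over all tested genes is not given here. COL1A1, a chain of type I collagen (chr17:50183289-50201632), was already abundant, with 176, 173 and 181 CPM in control and 1085, 1146 and 1080 CPM in knockdown, a log2 fold change of 2.64 ± 0.0829 (adjusted p = 1.01e-17).

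Among 30 genes of actin and the contractile apparatus, 24 were higher and 0 lower, with a median log2 fold change of 0.71 against 0.03 over all tested genes. They include TAGLN (transgelin), at 106 ± 2.07 CPM in control and 419 ± 16.2 CPM in knockdown, and TPM1 (tropomyosin 1), at 434 ± 4.39 and 902 ± 13.3 CPM (SD, n = 3 each). VCL (vinculin, which ties actin to adhesions) and CALD1 (caldesmon) were among the 6 transcripts with the largest gain in CPM, from 1051 ± 11.5 to 1792 ± 35.1 and from 624 ± 12.4 to 1282 ± 43.4 CPM. The gain was not shared by the main cytoskeletal actins: ACTB held 5566 ± 291 CPM in control against 5593 ± 206 CPM, a change of 0.01 ± 0.0634 on the log2 scale (adjusted p = 0.935), and ACTG1 held 3393 ± 129 against 3217 ± 120 CPM, a change of -0.08 ± 0.0533 (adjusted p = 0.232). FLNA, the actin cross-linker filamin A, passed the test at 0.35 ± 0.0897 but turned to -0.20 under ERCC scaling, under which the list had 11 members higher and 5 lower.

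Of 35 tested genes of collagens and other matrix proteins (of 36 listed), 17 were higher and 12 lower, so the list moved in both directions. THBS1 (thrombospondin 1) was higher by 2.69 ± 0.073, COL1A2, the partner chain of COL1A1, by 1.26 ± 0.0495, and COL4A1, of basement membranes, by 0.67. Laminin genes went the other way in part, with LAMB1 at -0.67 and LAMA1 at -0.54, and COL6A3 at -0.71. Under ERCC scaling 7 of the 35 were higher and 18 lower, where 8.2% and 49.7% of all tested genes were.

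Targets of YAP, the transcription coactivator that responds to cell shape and tension, were mostly higher as well. With no filter on low counts 19 of 25 were higher and 1 lower, where 12.2% of 39992 genes were called higher and 10.8% lower in that fit. MYOF (the membrane repair protein myoferlin) held 19.7, 19.8 and 19.2 CPM in control and 152, 143 and 148 CPM in knockdown, and AXL, a receptor tyrosine kinase, 41.3, 42.6 and 46.3 against 227, 228 and 212 CPM. Neither pair of groups overlapped (log2 fold changes 2.92 ± 0.0748 and 2.35 ± 0.0596, adjusted p = 4.36e-19 and 3.91e-19). The classical targets CCN1 and CCN2, secreted matricellular proteins, were higher by 1.47 ± 0.0761 and 1.15 ± 0.0606. TEAD4, a transcription factor partner of YAP, was the member that was lower (-0.43). Under ERCC scaling 10 of the 22 members past the count filter were higher and 3 lower.

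Of 35 p53 target genes 30 were higher, 2 were lower, and the median log2 fold change was 1.03. CDKN1A, the cell cycle inhibitor p21 (chr6:36676460-36687339), was scarce in control at 1.02, 0.747 and 0.475 CPM and reached 6.54, 6.24 and 6.14 CPM in knockdown. BTG2, an antiproliferative gene (chr1:203305491-203309602), went from 0.612, 0.408 and 0.203 CPM to 3.65, 4.62 and 4.01 CPM, and FAS, the death receptor (chr10:88990582-89015785), from 2.52, 2.72 and 1.90 CPM to 16.2, 13.2 and 14 CPM. In all 3 the lowest knockdown library was above the highest control library, with log2 fold changes of 3.06 ± 0.251, 3.30 ± 0.265 and 2.60 ± 0.201 (adjusted p = 3.71e-10, 2.59e-10 and 1.41e-10). The 3 were named for large changes within the list, so that separation adds no support.

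More abundant members of the same list changed less. MDM2, the ubiquitin ligase that restrains p53, was at 56.1 ± 4.4 CPM in control and 138 ± 7.91 CPM in knockdown (log2 fold change 1.30 ± 0.0871), and AEN, a nuclease of apoptosis, at 48.9 ± 3.61 and 99.9 ± 4.25 CPM (1.03 ± 0.0672). BAX, which permeabilises mitochondria, was higher by 0.50 ± 0.0613 under TMM but stood at -0.04 under ERCC scaling. TRIAP1 (-0.67) and CCNG1 (-0.37), both known p53 targets, were the members that were lower, while RRM2B, PMAIP1 and PERP did not pass (0.02, 0.06 and 0.10). Under ERCC scaling 21 of the 35 were higher and 5 lower. Among the BCL2 family, regulators of apoptosis, 9 of 17 tested members (of 18) were higher and 4 lower, led by the proapoptotic genes BBC3 (1.96 ± 0.143) and HRK (1.80 ± 0.177). Under ERCC scaling 2 of the 17 were higher and 7 lower, where 8.2% and 49.7% of all tested genes were.

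Promoter sequence was searched for the motif that p53 binds. The p53 response element was looked for, after the results were known, on both strands with at most 2 mismatches and at most 1 base between its paired repeats, in RefSeq windows (GRCh38.p14) of 250 bases before to 50 bases after the gene start. It was found in 1 of the 28 list members that have a window and in 0.531% of 27305 promoters. The match lies in AEN, at chr15:88621306-88621325 on the plus strand, and is printed in capitals with 40 bases on each side, as the list's single match.
AEN: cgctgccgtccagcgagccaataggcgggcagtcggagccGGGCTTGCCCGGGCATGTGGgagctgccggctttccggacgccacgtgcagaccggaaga
A match in this window is a description of the letters and no evidence of binding.

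Immediate early genes, which are switched on fast by growth signals and stress and are known for unstable transcripts, were also mostly higher. With no filter on low counts 21 of 38 were higher and 3 lower, where 12.2% and 10.8% of all genes in that fit were. Under ERCC scaling 13 of the 32 members past the count filter were higher and 5 lower. JUN (chr1:58780788-58784327), of the AP-1 transcription factor, was at 1.16, 1.02 and 0.881 CPM in control and 9.93, 10.4 and 10.3 CPM in knockdown. Its relative FOSL1 was at 1.63, 2.11 and 1.76 CPM and 14.5, 15.7 and 16.1 CPM. Both pairs of groups were well apart (log2 fold changes 3.31 ± 0.175 and 3.07 ± 0.167, adjusted p = 1.48e-13 and 2.56e-13). MAFF and ATF3, both stress-responsive bZIP factors, were higher by 2.57 ± 0.134 and 2.49 ± 0.151. FOS, the usual partner of JUN, was lower (-0.83 ± 0.289, adjusted p = 0.0179), as was DUSP6, the phosphatase that damps ERK signalling, from 9.17 ± 0.578 to 3.57 ± 0.18 CPM (-1.36 ± 0.128, adjusted p = 4.28e-09). In the list of FGF and ERK feedback genes 5 of 17 were higher and 8 lower, where 28.4% and 26.2% of all tested genes were. There FGF2, the growth factor that sustains pluripotency, went from 78.5 ± 0.996 to 252 ± 9.11 CPM, and its receptor FGFR3 from 15.5 ± 2.0 to 31.5 ± 1.49 CPM.

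Genes that mark the naive pluripotent state were low in both genotypes and higher in knockdown. Of 18 listed, 11 passed the count filter, and with no filter 12 of 18 were higher and 0 lower. Among all genes of the fit with no filter 12.2% were higher and 10.8% lower. Under ERCC scaling 7 of the 11 were higher and 0 lower. ALPG, the germ cell alkaline phosphatase (chr2:232406843-232410714), had 0.204, 0.679 and 0.475 CPM in control and 17.7, 19.4 and 19.2 CPM in knockdown (log2 fold change 5.35 ± 0.245, adjusted p = 1.09e-14). KLF4, a reprogramming factor, had 0.34, 0.272 and 0.271 CPM against 2.2, 2.31 and 2.32 CPM (2.92 ± 0.351, adjusted p = 2.05e-07). TFAP2C and KLF5, transcription factors of early embryo and epithelium, were higher by 2.66 ± 0.234 and 2.57 ± 0.232. Other defining naive genes stayed near 0: KLF17 had 1 count in the control and 1 in the knockdown libraries together, and TBX3 had 0 and 8.

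The remaining transcripts with the largest rises come from several families. CREB5, a transcription factor of the CREB family, stood at 2.49 ± 0.906 CPM in control and 48.1 ± 2.15 CPM in knockdown, and CCNA1, the germ line cyclin A, at 0.905 ± 0.14 and 17.3 ± 0.969 CPM (SD, n = 3 each). IGFBP5, which binds insulin-like growth factors, was higher by 4.05 ± 0.157, ACHE (acetylcholinesterase) by 4.0 ± 0.168, GFRA1, a receptor for the neurotrophic factor GDNF, by 3.97 ± 0.134, and SEMA3B, a secreted semaphorin, by 3.94 ± 0.166. MAB21L4 had 2, 0 and 1 counts in the control libraries and 176, 213 and 193 in the knockdown libraries. Scaled for library size, the ratio of its summed counts was 179, with an exact 95% interval of 60.9 to 870 that covers counting error only. KIF1A, an axonal motor, was among the 6 largest gains in CPM, from 596 ± 12.7 to 1318 ± 34.1.

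**Figure D2:**
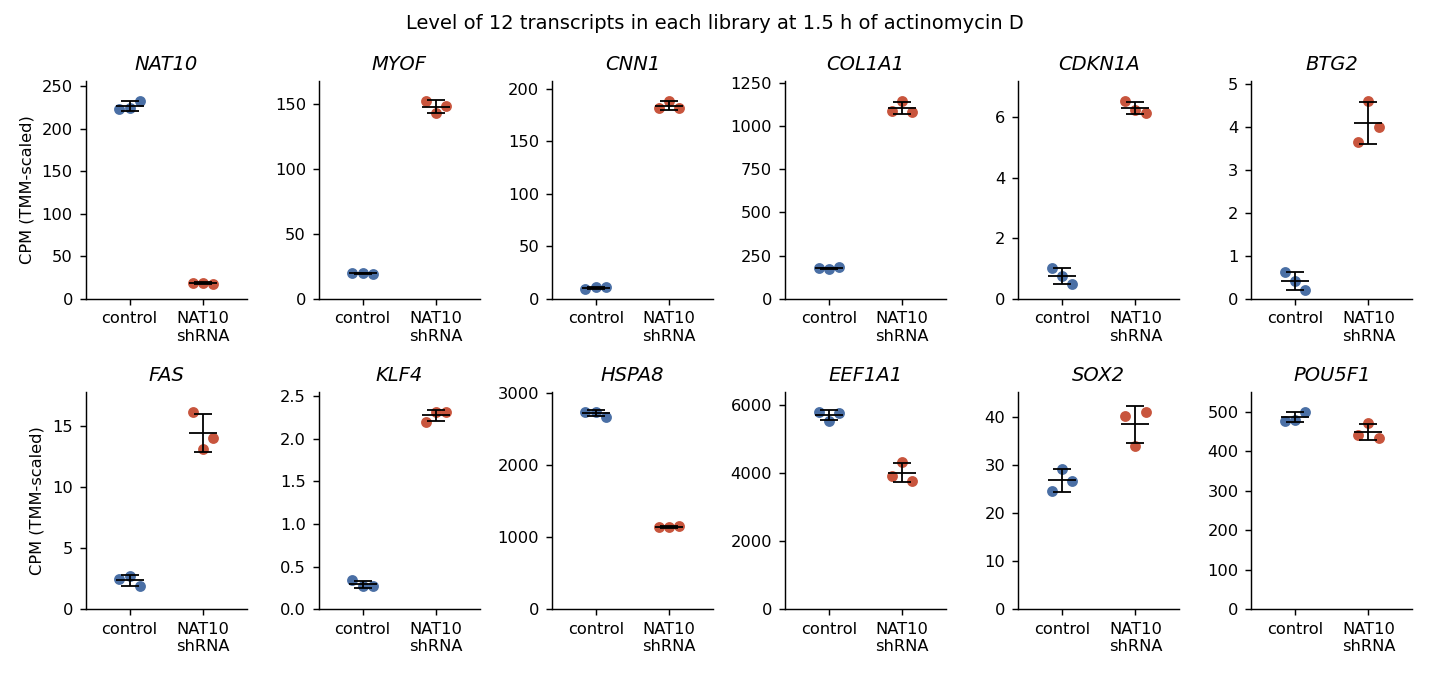
Each panel shows 1 transcript at 1.5 h, with its TMM-scaled CPM in the 3 control libraries (blue) and the 3 NAT10 shRNA libraries (red), and bars at the mean ± SD. The groups do not overlap in any of the 12 panels, but most of these genes were picked for large changes. How often the groups separate over all tested genes is not given. POU5F1 did not pass the test (449 against 487 CPM, adjusted p = 0.0672).

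Ribosomal protein transcripts were lower in a broad and shallow way. Of 77 tested (of 78), 60 were lower and 1 higher, with a median log2 fold change of -0.28, and no member fell below -0.55. RPL39 was at 186, 227 and 181 CPM in control and 132, 133 and 140 CPM in knockdown, RPL9 at 799, 763 and 793 against 565, 534 and 580 CPM, and RPL3 at 2444, 2431 and 2529 against 1695, 1877 and 1711 CPM. No library of either group crossed into the other (log2 fold changes -0.55 ± 0.0818, -0.49 ± 0.0552 and -0.49 ± 0.0582, adjusted p = 4.14e-06, 8.15e-08 and 1.85e-07). RPS19, which is mutated in Diamond-Blackfan anaemia, was the member that was higher (0.25 ± 0.066), and it turned to -0.30 under ERCC scaling. These genes have many processed pseudogene copies, and how the authors' counting shared reads among copies is not given in the sources used here.

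Genes of translation itself showed the same direction. Of 38 tested initiation, elongation and termination factors (of 39), 29 were lower and 2 higher, with a median of -0.33. EEF1A1, the elongation factor that brings aminoacyl-tRNA to the ribosome and one of the most abundant transcripts, held 5801, 5530 and 5764 CPM in control and 3922, 4319 and 3776 CPM in knockdown. Every knockdown library was below every control library of EEF1A1 (log2 fold change -0.51 ± 0.0505, adjusted p = 9.67e-09). EIF3E and EIF3L, subunits of initiation factor 3, were lower by -0.69 and -0.60, and EIF4B, which assists the helicase EIF4A, by -0.63. EIF5, which triggers GTP hydrolysis in initiation, was higher by 0.53 ± 0.0599 but at -0.01 under ERCC scaling.

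Many ribosomal protein transcripts begin with a C followed by an unbroken stretch of pyrimidines, the terminal oligopyrimidine tract through which their translation is regulated. The first bases of 3 ribosomal protein genes and of EEF1A1 are printed for that reason, with 15 bases before and 15 from the RefSeq gene start on (GRCh38.p14), and capitals mark a run that starts with C, follows an A or G, has its first base within 5 bases of the gene start and goes on for at least 5 more bases of C or T, a search also set up after the results were known.
RPL39: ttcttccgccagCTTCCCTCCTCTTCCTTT
RPL9: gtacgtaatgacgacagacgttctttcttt
RPL3: gtaaggccgaccggcctctaccggcgggat
EEF1A1: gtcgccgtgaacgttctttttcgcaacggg
The windows lie at chrX:119791616-119791645, chr4:39458908-39458937, chr22:39319609-39319638 and chr6:73521018-73521047, all on the minus strand. The run of RPL39 has 22 bases and goes on past the printed window. RPL9 and RPL3 have none. EEF1A1 has a C and 6 more pyrimidines from its start on, but they follow a T, so they count only when any base may stand before the C. Such a run stood in 26 of 62 ribosomal protein windows (41.9%), in 4 of 30 of translation factors (13.3%) and in 7.26% of all 27305 promoters. With any base before the C, a condition relaxed after these shares were seen, it stood in 46 of 62 (74.2%), 10 of 30 (33.3%) and 11% of them. Among tested genes with a window the run stood in 8.45% of those that were lower, 7.77% of those that did not pass and 7.17% of those that were higher, and with any base before the C in 13.8%, 11.2% and 10.7%. Outside the ribosomal protein and translation factor lists it stood in 7.94% of the lower and 7.18% of the higher genes. With any base before the C these shares were 12.8% and 10.7%.

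Factors that build the ribosome were lower too. Of 65 genes of ribosome biogenesis 42 were lower and 2 higher, with a median of -0.29. NPM1 (nucleophosmin) went from 2280 ± 23.2 to 1525 ± 52.8 CPM and NCL (nucleolin) from 2848 ± 75.3 to 2035 ± 64.1 CPM (SD, n = 3 each), both major nucleolar proteins. The largest change in the list was in EBNA1BP2, a 60S assembly factor, at 190, 190 and 183 CPM in control and 82.3, 79.9 and 83.0 CPM in knockdown (log2 fold change -1.20 ± 0.0615, adjusted p = 9.08e-14). POLR1A, the largest subunit of RNA polymerase I, was lower by -0.24. At 3.5 h the same list had 35 members higher and 17 lower under TMM. The effect was higher at 3.5 h than at 1.5 h for 42 of the 65 and lower for 1. Over all tested genes it was higher for 18.3% and lower for 11.5%, but for 187 and 3130 genes with ERCC scaling. The counts of this list at 3.5 h are not given with ERCC scaling.

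Genes of cell division were lower in knockdown. Of 51 DNA replication genes 42 were lower and 1 higher (median -0.39), and of 48 tested mitosis genes (of 49) 35 were lower and 1 higher (median -0.37). CHAF1A, of the chromatin assembly factor that deposits histones on new DNA (chr19:4402662-4445018), held 181, 166 and 185 CPM in control and 56.1, 53.9 and 52.7 CPM in knockdown, and CDCA8, of the chromosomal passenger complex, 57.1, 57.6 and 55.8 against 18.9, 20.4 and 21.8 CPM. Both pairs were clearly separate (log2 fold changes -1.71 ± 0.0642 and -1.48 ± 0.0742, adjusted p = 3.04e-16 and 5.79e-14). UHRF1, which maintains DNA methylation, was lower by -1.07, the helicase subunit MCM4 by -0.61, and the proliferation marker MKI67 by -0.86. Replication-dependent histone transcripts mostly lack poly(A) tails, and 13 of the 76 listed had 0 counts in all 6 libraries. With no filter 3 of 71 were higher and 0 lower, and of the 14 past the filter 3 were higher and 0 lower, which turned to 0 higher and 3 lower under ERCC scaling.

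Chromatin regulators had 33 of 67 members lower and 10 higher (median -0.19). CHD7, a remodeller of enhancers, was at 152 ± 3.05 CPM in control and 39.2 ± 2.88 CPM in knockdown, TET1, which oxidises 5-methylcytosine, at 114 ± 3.80 and 37.1 ± 2.35 CPM, and ANP32A, an acidic histone chaperone, at 434 ± 18.6 and 160 ± 7.93 CPM. Log2 fold changes were -1.95 ± 0.0614, -1.63 ± 0.0631 and -1.44 ± 0.0626, and the libraries did not overlap for any of the 3. ANP32B, the related gene, was lower by -0.63 ± 0.0537 (adjusted p = 8.51e-10).

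Among 39 writers, erasers and readers of RNA modification, NAT10 included, 24 were lower and 4 higher. VIRMA, the scaffold of the m6A methyltransferase complex, was at 70.3, 72.4 and 63.6 CPM in control and 31.1, 29.2 and 27.3 CPM in knockdown, and its catalytic subunit METTL3 at 65.0, 59.7 and 63.7 against 40.4, 41.9 and 42.5 CPM. Neither pair overlapped (log2 fold changes -1.24 ± 0.0713 and -0.59 ± 0.0646). TRMT10C, a mitochondrial tRNA methyltransferase and part of mitochondrial RNase P, was lower by -0.90 ± 0.0815. The m6A reader YTHDF2 was lower by -0.77 and its paralogue YTHDF1 higher by 0.50, which turned to -0.04 under ERCC scaling. Of 67 mRNA decay genes 34 were lower and 8 higher, and of 33 genes of SR and hnRNP splicing factors and CLK kinases 25 were lower and 3 higher. HNRNPA1 went from 2299 ± 80.5 to 1339 ± 62.7 CPM and SRSF7 from 523 ± 6.56 to 235 ± 3.69 CPM.

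Major chaperones of the cytosol and the endoplasmic reticulum were lower, and the stress lists were mixed. HSPA8, the constitutive HSP70 (chr11:123057489-123063230), held 2748, 2743 and 2678 CPM in control and 1139, 1138 and 1157 CPM in knockdown, with replicates within a narrow band (log2 fold change -1.25 ± 0.047, adjusted p = 3.04e-16). HSP90AB1 was lower from 5313 ± 73.6 to 3725 ± 39.8 CPM and HSPA5, the chaperone BiP, from 1676 ± 2.88 to 922 ± 16.7 CPM. Of 19 tested heat shock genes (of 21) 12 were lower and 3 higher. The list of unfolded protein and integrated stress genes was split, with 15 higher and 17 lower of 36 tested (of 37). Its higher members include the stress regulators DDIT4 (2.53 ± 0.228), SESN2 (2.46 ± 0.208) and DDIT3 (2.38 ± 0.283), and its lower members include the protein folding genes DNAJC3 (-1.20), MANF (-1.14) and PDIA6 (-0.61).

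**Figure D3:**
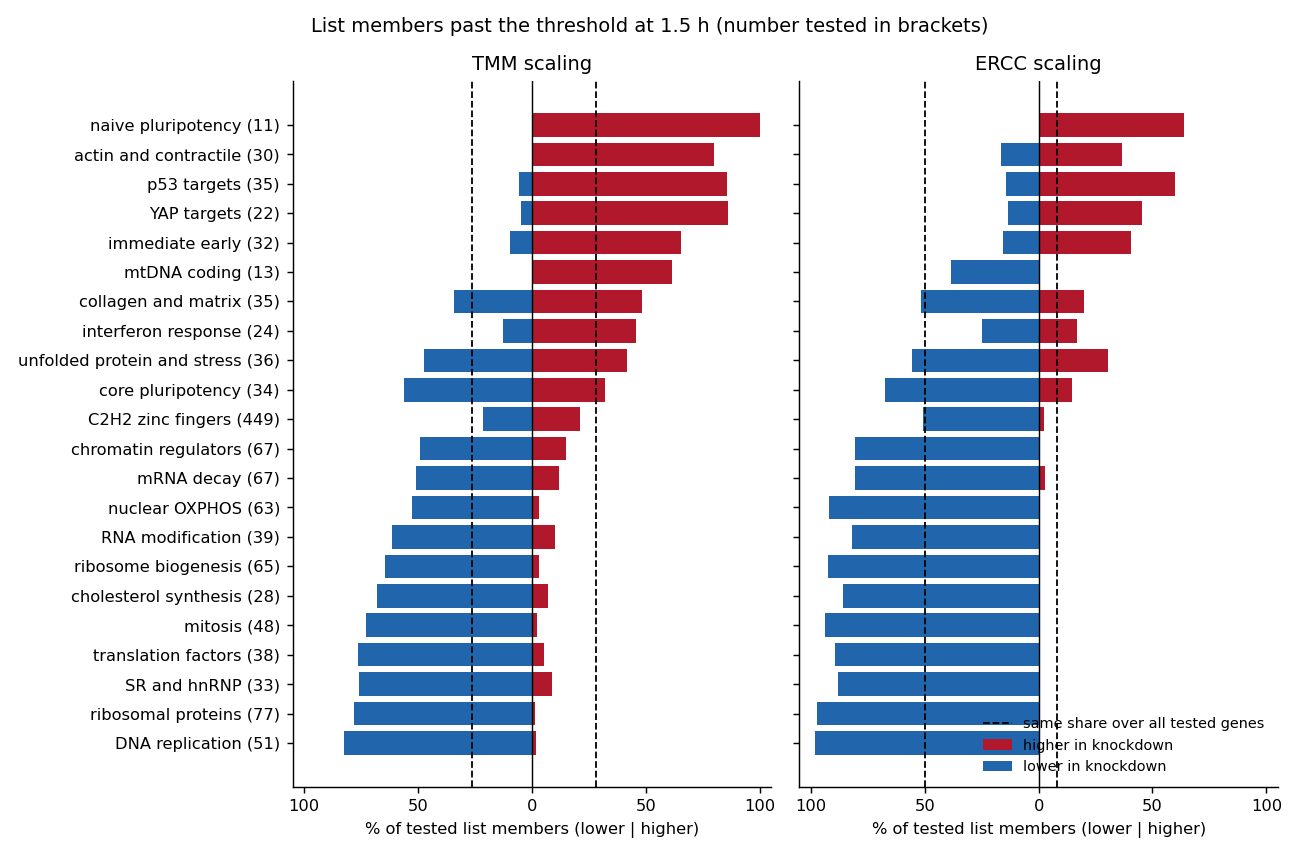
For each gene list, bars give the percentage of tested members that were higher (red, to the right) or lower (blue, to the left) in knockdown at 1.5 h, under TMM scaling (left panel) and ERCC scaling (right panel). Dashed lines mark the same shares over all tested genes, 28.4% and 26.2% under TMM and 8.2% and 49.7% under ERCC scaling. Mitochondrial DNA goes from 8 higher and 0 lower of 13 to 0 higher and 5 lower, and the DNA replication, ribosomal protein and translation lists stay on the lower side.

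Other large falls were single genes. The mitochondrial phenylalanine tRNA gene MT-TF had 26.1, 39.3 and 29.4 CPM in control and 3.27, 1.62 and 2.01 CPM in knockdown (log2 fold change -3.78 ± 0.176), though oligo(dT) captures tRNA poorly. The long noncoding RNA D21S2088E had 53.6, 51.3 and 47.6 against 5.53, 5.05 and 4.89 CPM (-3.30 ± 0.105), and ZDHHC22, of the palmitoyltransferase family, 108, 107 and 104 against 19.4, 15.7 and 18.9 CPM (-2.56 ± 0.0797). GABARAPL2, an ATG8 protein of autophagosomes, was lower by -2.35 ± 0.103, MDFI, an inhibitor of myogenic factors, by -2.29 ± 0.105, HSD11B2, which inactivates cortisol, by -2.22 ± 0.156, TTLL12, of the tubulin ligase-like family, by -2.10 ± 0.109, and PHF6, a PHD-finger nucleolar protein, by -2.01 ± 0.0849.

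Metallothioneins, small metal-binding proteins encoded by near-identical neighbouring genes, went in opposite directions. MT2A had 66.1, 67.5 and 71.8 CPM in control and 11.1, 14.6 and 13.2 CPM in knockdown (log2 fold change -2.40 ± 0.344, adjusted p = 2.74e-06). MT1X had 4.08, 3.74 and 4.0 CPM against 30.4, 27.7 and 27.0 CPM (2.85 ± 0.185, adjusted p = 6.75e-12). Of 12 genes in this list, zinc exporter and regulator included, 5 were higher and 2 lower with no filter, while among the 9 that passed the filter the balance of 4 higher and 1 lower became 2 higher and 4 lower under ERCC scaling. How reads were shared among the near-identical copies is not given, so the split between members is uncertain.

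The core pluripotency network was not uniformly lower. Of 34 genes 19 were lower and 11 higher, with a median log2 fold change of -0.30. Over all tested genes 26.2% were lower and 28.4% higher, so the share of the list that was higher was near that of any gene. Under ERCC scaling 23 were lower and 5 higher. SOX2 (chr3:181711924-181714436) was at 24.5, 29.1 and 26.7 CPM in control and 40.2, 34 and 41.1 CPM in knockdown. The lowest knockdown library lay above the highest control library, and the change of 0.52 ± 0.0906 passed the test (adjusted p = 3.52e-05), but it was -0.004 under ERCC scaling. POU5F1 (OCT4, chr6:31164337-31180731) was at 478, 480 and 501 CPM and at 441, 472 and 435 CPM. These groups did not overlap, yet the change of -0.12 ± 0.0524 missed the threshold (adjusted p = 0.0672), and POU5F1 has near-identical pseudogenes. It passed with DESeq2's size factors (adjusted p = 0.0433), without the second knockdown library (adjusted p = 0.0241) and under ERCC scaling (-0.66, adjusted p = 0.00181).

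NANOG, the homeobox factor, was at 12.2, 11.4 and 12.7 CPM and at 12.8, 11 and 11.8 CPM, so the groups overlapped (log2 fold change -0.03 ± 0.111, adjusted p = 0.855). LIN28A, the RNA-binding protein that blocks let-7 maturation, was lower at 2288 ± 43.8 and 1617 ± 42.2 CPM (-0.50 ± 0.0383, adjusted p = 1.17e-10), while its paralogue LIN28B did not pass (277 ± 17.7 and 256 ± 16 CPM, adjusted p = 0.196). Among the members that were lower, L1TD1, an RNA-binding protein of stem cells, went from 1617 ± 81.1 to 958 ± 71.6 CPM, TERF1 of telomeres from 666 ± 22.8 to 338 ± 15 CPM, and the ligand NODAL from 15.2 ± 0.492 to 6.33 ± 0.731 CPM. Members that were higher include FGF2 and the chromatin factor UTF1 (1.54 ± 0.19).

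Many markers of other cell types were low or absent, and several of those present were higher in knockdown. Endoderm markers summed to 16 to 18.8 CPM in control and 49.1 to 50.3 CPM in knockdown, from 13 genes of which 10 stayed under 1 CPM in all 6 libraries and TTR was at 0. Neural markers summed to 629 to 657 CPM and 1284 to 1405 CPM, carried mostly by NES (599 ± 15.3 and 1225 ± 65.8 CPM), an intermediate filament also made by stem cells, and by MAP2 (5.23 ± 0.439 and 48.5 ± 2.36 CPM). The neural factors EMX2, NEUROG1, NEUROD1 and HES5 were at 0. PAX6 was under 1 CPM, with 6 counts in the control and 39 in the knockdown libraries together. With no filter 6 of 23 neural genes were higher and 1 lower. Over all genes 12.2% were higher and 10.8% lower in that fit. Fibroblast markers summed to 1031 to 1104 CPM and 1839 to 1944 CPM, and with no filter 7 of 17 were higher and 6 lower. Within that list COL1A1, COL1A2 and VIM were higher, and TWIST1 had 3 counts in the control and 89 in the knockdown libraries together. THY1, a surface marker of fibroblasts and stem cells, fell from 399 ± 26.9 to 107 ± 9.05 CPM and PDGFRA from 2.96 ± 0.405 to 0.877 ± 0.218 CPM. DCN, LUM and FAP were at 0.

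For mesoderm the sums were 145 to 154 CPM and 122 to 125 CPM (11 of 15 genes under 1 CPM), and for trophoblast 666 to 700 CPM and 690 to 738 CPM (11 of 16 under 1 CPM). HAND1, HAND2, MSGN1, CGA, ELF5 and VGLL1 were at 0. GATA3, of the trophoblast list, had 1 count in the control and 24 in the knockdown libraries together. The trophoblast sum rests on KRT8 and KRT18, keratins of simple epithelia, which did not pass the test. With no filter 3 of its 16 genes were higher and 1 lower, a balance that was 2 higher and 3 lower of the 6 past the filter under ERCC scaling. The part that cells of another type have in the matrix and contractile genes was not tested.

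Transcripts of mitochondrial DNA, which is transcribed by its own polymerase, had another balance between the genotypes at 1.5 h than before the block. At 1.5 h 8 of its 13 coding genes were higher in knockdown and 0 lower (median log2 fold change 0.23). Under ERCC scaling 0 were higher and 5 lower, where 8.2% and 49.7% of all tested genes were. MT-ND2, a subunit of respiratory complex I, held 612, 606 and 637 CPM in control and 1006, 1028 and 952 CPM in knockdown (0.69 ± 0.0594, adjusted p = 9.62e-10, and 0.14 under ERCC scaling). MT-CYB, of complex III, held 3241, 3331 and 3464 CPM against 4589, 4441 and 4508 CPM (0.43 ± 0.0446, adjusted p = 1.86e-08, and -0.11 under ERCC scaling). The groups did not overlap for either gene. The nuclear genes of the same complexes went the other way, with 33 of 63 lower and 2 higher, and the mitochondrial ribosomal RNA MT-RNR1 went from 2388 ± 47.8 to 1127 ± 27.7 CPM.

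Before the block, in libraries not used for the 1.5 h comparison, 9 of the 13 were lower and 1 higher. The effect at 1.5 h exceeded that at 0 h for 10 of the 13 (interaction term of the same fit, adjusted p under 0.05), where 1.17% of all tested genes were called higher and 0.0597% lower in that test. MT-CO1, of complex IV, had the next largest difference after MT-ND2, from -0.78 at 0 h to -0.08 at 1.5 h, a difference of 0.71 ± 0.0689 (adjusted p = 7.8e-06). As a share of gene counts the 13 together took 3.74 ± 0.151% in control and 3.31 ± 0.0279% in knockdown at 0 h, and 2.69 ± 0.053% and 3.31 ± 0.0489% at 1.5 h. The control share was thus lower at 1.5 h than at 0 h, and the knockdown share was at 3.31% at both times. Knockdown replicate 1 at 0 h stands apart from its group, with a chi-square per degree of freedom over genes of 14.5 and 20.7 against the other two, which differ by 2.09. Without it 11 of the 13 passed, and with ERCC scaling 0 of the 13 did (adjusted p = 0.301 for MT-ND2). The estimates themselves were not smaller with ERCC scaling, at 0.94 for MT-ND2 and 0.83 for MT-CO1.

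**Figure D4:**
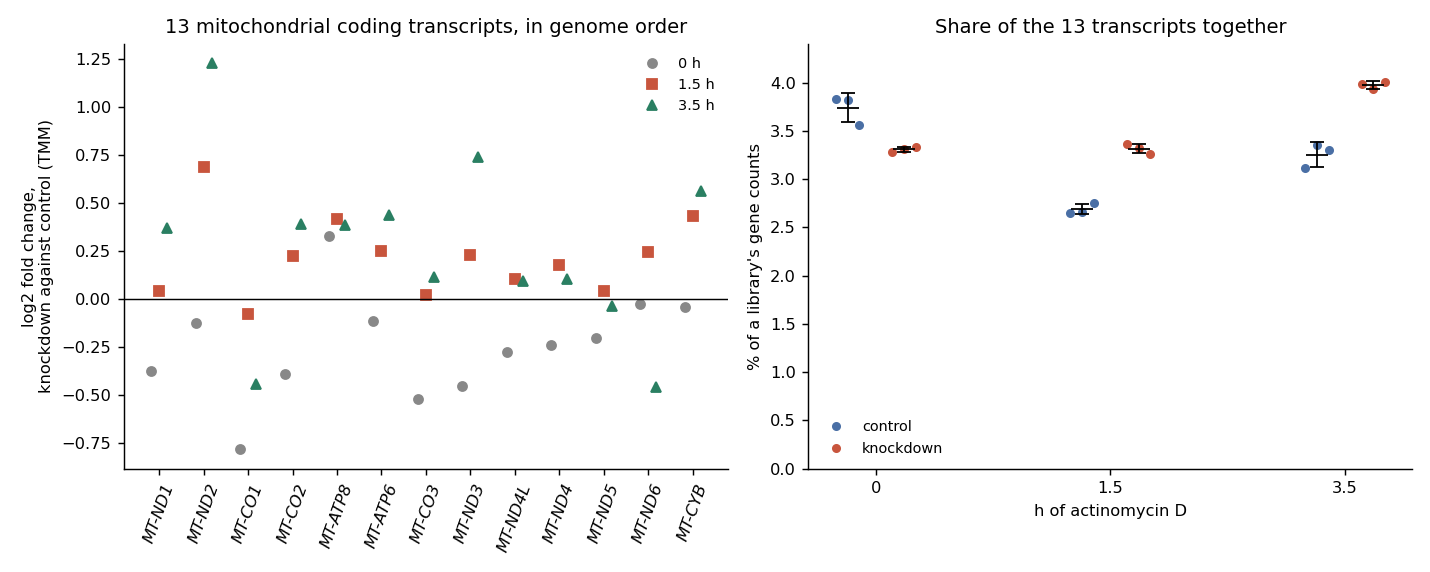
The left panel shows the log2 fold change (knockdown against control, TMM) of the 13 mitochondrial coding transcripts at 0 h (grey circles), 1.5 h (red squares) and 3.5 h (green triangles). The right panel shows the share of gene counts that the 13 take together in each library, with the mean ± SD, control in blue and knockdown in red. At 0 h control is above knockdown (3.74% and 3.31%), and at 1.5 h it is below (2.69% and 3.31%).

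Over all genes the comparison at 1.5 h resembled that before the block, which shares no library with it. Of the 9148 genes called at 1.5 h, 7160 were also called at 0 h, 7127 of them in the same direction, and across all tested genes the log2 fold changes had r = 0.886 and rho = 0.846 (a description across genes, which are not independent replicates). The effect differed between the times for 206 genes, 196 of them with the higher value at 1.5 h. The count moved with single libraries: without knockdown replicate 1 at 0 h it was 733 higher and 293 lower, among them all 206, and without any one of the other 11 libraries it was 76 to 171 higher and 3 to 16 lower. A fit of only these groups gave 45 higher and 3 lower. With ERCC scaling it was 4 higher and 0 lower, although the median difference over all tested genes was 0.17, against 0.04 with TMM.

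**Figure D5:**
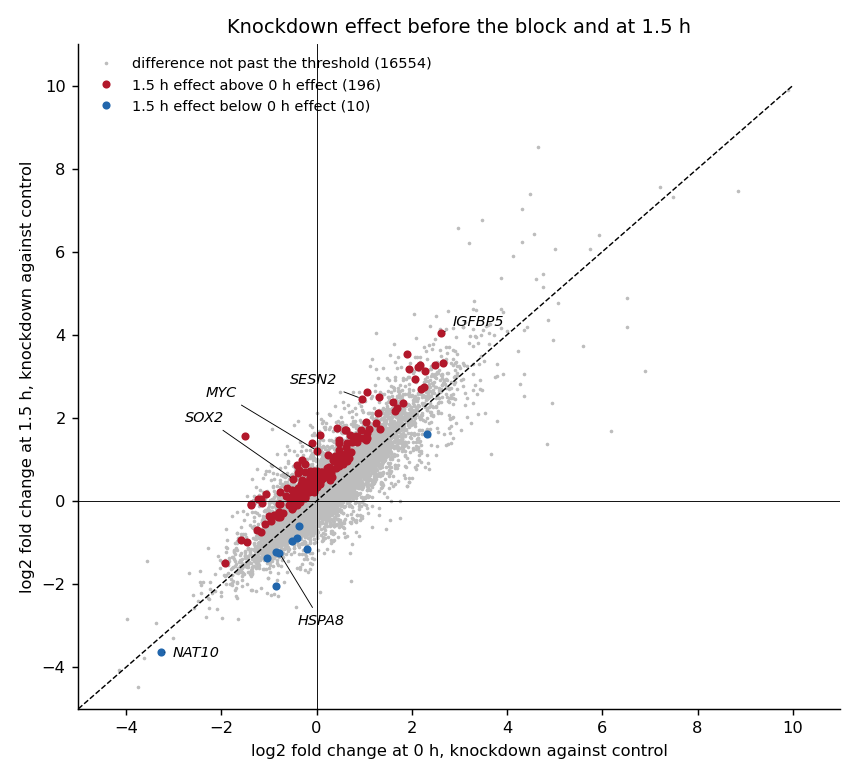
Each point is 1 tested gene, with its log2 fold change at 0 h on the x axis and at 1.5 h on the y axis, from separate libraries. The dashed line marks equal effects. Red points (196) have a higher effect at 1.5 h and blue points (10) a lower one, by the interaction test, and SOX2 lies at -0.48 and 0.52.

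Several of the named upward differences were in regulators and secreted factors. SESN2, a stress-induced inhibitor of mTORC1 signalling, had an effect of 0.95 at 0 h and 2.46 at 1.5 h, a difference of 1.514 ± 0.267 (adjusted p = 0.00466, and 0.00784 with ERCC scaling). For MYC, the growth regulator, the libraries at 1.5 h held 4.83, 5.03 and 4.14 CPM in control and 11.1, 10.9 and 10.3 CPM in knockdown, well apart, while at 0 h the log2 fold change was 0.01. The difference was 1.20 ± 0.176 (adjusted p = 0.000575). SOX2 went from lower in knockdown at 0 h (-0.48) to higher at 1.5 h (0.52), a difference of 1.0 ± 0.124 (adjusted p = 9.09e-05). In all, 33 genes including SOX2 were called lower at 0 h and higher at 1.5 h, and 0 genes the other way round. CITED2, a coactivator that binds CBP and p300, and IGFBP5 had differences of 1.097 and 1.43. With ERCC scaling the differences of MYC (1.33, adjusted p = 0.0800), SOX2 (1.14, adjusted p = 0.149), CITED2 (1.19, adjusted p = 0.230) and IGFBP5 (1.57, adjusted p = 0.117) were no smaller but did not pass.

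Downward differences were few. HSPA8 went from -0.78 to -1.25, a difference of -0.47 ± 0.0655 (adjusted p = 0.000339). NAT10 itself was among them at -0.37 ± 0.0896 (adjusted p = 0.0378), a call that was lost when any one library other than knockdown replicate 1 at 0 h was left out, with adjusted p from 0.0515 to 0.125. Neither HSPA8 (-0.34) nor NAT10 (-0.24) passed with ERCC scaling.

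The comparison at 3.5 h was further from that at 1.5 h. The effect was higher at 3.5 h for 3064 genes (18.3%) and lower for 1933 (11.5%), but with ERCC scaling for 187 and 3130. ANXA1 (annexin A1, a membrane-binding protein) held 54.4, 58.1 and 55.4 CPM in control and 573, 509 and 588 CPM in knockdown at 1.5 h, already far apart, and its effect rose by a further 2.73 on the log2 scale by 3.5 h. XBP1, of the unfolded protein response, and PRDM14, a repressor in the pluripotency network, were lower at 1.5 h (-0.77 and -0.60) and higher at 3.5 h, with differences of 2.32 and 2.30. MT1G, a metallothionein at 0.68, turned to lower at 3.5 h, with a difference of -2.28.

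The half-lives in the authors' deposited table, 1 value per genotype with no error, can be set beside these levels. For MYC the authors' deposited table gives 1.11 h in control and 2.73 h in knockdown, and for SESN2 0.608 h and 1.48 h. For MT-ND2 it gives 1.23 h and 2.63 h, and for SOX2 0.867 h and 1.96 h. For EEF1A1 the authors' deposited table gives 7.61 h in control and 3.68 h in knockdown. Half-life and level are not on the same scale, and they did not always move the same way. Of genes that were higher at 1.5 h, the authors' deposited table gives 8.17 h and 3.99 h for CALD1, 4.59 h and 3.03 h for AXL, and 4.38 h and 2.82 h for VCL. These genes were already higher at 0 h, by 0.89, 2.21 and 0.81. Relative to the typical transcript CALD1 rose by 0.68 in control from 0 h to 3.5 h, although its half-life there is finite. CHD7, which was lower, has 1.34 h and 1.80 h there. That table lists the libraries at 1.5 h beside the half-lives, so these values are no independent support.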

How the data were processed

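Polyadenylated RNA of H1 cells with a control or a NAT10 shRNA was sequenced at 3 times after actinomycin D. Read counts per gene are raw counts deposited by the authors, made with fastp 0.21.1, HISAT2 2.2.1, SAMtools 1.12 and featureCounts 2.0.3 on hg38, per the submitters' processing notes. Not given in the sources used here: the annotation release and the strand setting. The authors' deposited table of half-lives also holds a normalized signal per library, which equals the count times 1 factor per gene and 1 per library, half-lives in hours per genotype, and the log2 ratio of the half-lives. The signal and the log2 ratio deposited by the authors were not used for tests.

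Of 61860 genes, 16760 passed filterByExpr. They were tested in edgeR 4.0.16 (R 4.3.3) with TMM scaling and the quasi-likelihood F test over all 18 libraries, 1 coefficient per group, with Benjamini-Hochberg adjustment at 0.05; the spread is thus shared by all groups. The SE is the absolute log2 fold change divided by the square root of F. Effects at different times were compared with interaction terms of that fit. Ratios and shares were compared with exact permutation tests. ERCC scaling, upper-quartile scaling, DESeq2 1.42.0 and its size factors, no count filter, a fit of the compared groups, a replicate block, a 1.5-fold minimum and leaving out each library were the alternatives. The code was tested on simulated data. Coordinates are GRCh38, with gene models of GENCODE v29, which held 58308 of the gene IDs. Promoter sequences are from RefSeq (GRCh38.p14).

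The members and lists were chosen with earlier results of these data known. Genes were named by a rule: NAT10, THUMPD1, ANP32B and 5 stem cell genes; the 10 largest rises and 10 largest falls with a mean of at least 5 CPM and groups that do not overlap; the 6 largest rises and 6 largest falls in CPM; the 3 largest changes in each list; and the largest differences between times. Other list members named were chosen for their role after their values were seen. Each library at 1.5 h held 15258281 to 15519197 counts. Intervals cover counting error only. Some genes that the rule would name are not reported here and were not replaced; they remain in the fits and in the counts of lists.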

Additional observations from a re-analysis of the deposited data

Results flagged for a closer look

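The effect of the knockdown differed between 0 h and 1.5 h by the interaction test for these nuclear genes named by the rule (adjusted p under 0.05, log2 scale, effect at 1.5 h minus effect at 0 h). Higher at 1.5 h were SESN2 by 1.514, IGFBP5 by 1.43, BAMBI by 1.31, MARCHF1 by 1.28, MYC by 1.20, ADM by 1.11996, NTNG1 by 1.103, CITED2 by 1.097, TAC1 by 1.09, SOX2 by 1.005, BTG1 by 0.99, AXIN2 by 0.75, TENT5B by 0.68, ANXA1 by 0.66, ZNF75D by 0.65, VLDLR by 0.61, KIF1A by 0.51 and THBS1 by 0.49. Lower at 1.5 h were TRANK1 at -0.69, TRMT10C at -0.49, HSPA8 at -0.47, SALL2 at -0.44, VIRMA at -0.39, NAT10 at -0.37 and SFRP1 at -0.35. With ERCC scaling SESN2 (adjusted p = 0.00784) and MARCHF1 (adjusted p = 0.0452) still passed and the others listed here did not.

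On mitochondrial DNA the same test passed for MT-ND2 (0.81), MT-CO1 (0.71), MT-ND3 (0.68), MT-CO2 (0.62), MT-CO3 (0.54), MT-CYB (0.47), MT-ND1 (0.415), MT-ND4 (0.413), MT-ND4L (0.38), MT-ATP6 (0.37) and the ribosomal RNA MT-RNR2 (0.32), all higher at 1.5 h. Knockdown replicate 1 at 0 h stands apart from its group and enters each of these differences; all passed without it as well.

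Between 1.5 h and 3.5 h the effect rose, among genes named by the rule, for ANXA1 (2.73), B3GNT2 (2.46), XBP1 (2.32), INTS5 (2.31) and PRDM14 (2.30). Among those where it fell were MT1G (-2.28), MT1X (-2.22), MT1E (-1.80) and DNHD1 (-1.77).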

How the results depend on the processing

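The counts of genes higher and lower at 1.5 h were 1375 and 8331 with ERCC scaling, 1386 and 8285 with TMM factors over the ERCC transcripts (an alternative chosen after seeing the data), and 1776 and 550 when a change of at least 1.5-fold was required. The genes whose effect at 1.5 h differs from 0 h, 196 higher and 10 lower, became 4 and 0 with either ERCC scaling. Those higher were 116 with upper-quartile scaling and 45 with only the groups compared, and those lower were 21 with DESeq2, 16 with no count filter and 3 with only the groups compared. Leaving out each library in turn gave 76 to 733 higher and 3 to 293 lower. The genes whose effect at 3.5 h differs from 1.5 h were 187 higher and 3130 lower with ERCC scaling, and 177 and 4140 with its TMM form. Those lower were 3119 with upper-quartile scaling and 3470 with only the groups compared.

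Directions at 1.5 h that reversed with ERCC scaling and its TMM form were MT-CYB (-0.107 and -0.103), FLNA (-0.20 and -0.19) and MT-ATP8 (-0.106 and -0.100). SOX2 was at -0.00395 with ERCC scaling. NANOG, which did not pass, was at 0.0350 with upper-quartile scaling and at -0.0894 to 0.0196 when each library was left out, and the difference of MT-ATP8 between 1.5 h and 0 h was at -0.0429 to 0.27. Under both forms of ERCC scaling the members that were higher numbered 2 of the BCL2 family, 0 of mitochondrial DNA, 4 of the interferon response, 2 of the metallothioneins, 2 of the autophagy list, 2 of the trophoblast markers and 0 of the replication histones. The replication histones had 1 higher without control replicate 3. The cause of these shifts was not tested.

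With a replicate block 4728 genes were higher and 4385 lower at 1.5 h, and 148 and 8 differed between 1.5 h and 0 h. Same-numbered libraries at 1.5 h deviated together no more than differently numbered ones (correlations 0.024, -0.022 and -0.033 against -0.026 to 0.047). Whether the numbers pair the samples is not given in the labels, and these few correlations cannot settle it.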

Other observations

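Classes of noncoding RNA differed in their balance at 1.5 h. Over all tested genes 28.4% were higher and 26.2% lower. Of 589 tested lincRNA genes 155 (26.3%) were higher and 72 (12.2%) lower (median log2 fold change 0.25, and -0.30 with ERCC scaling). Of 651 antisense genes 154 (23.7%) were higher and 67 (10.3%) lower (median 0.20, and -0.35 with ERCC scaling). Without a stated strand setting, reads of an antisense gene and its partner cannot be told apart. Of 683 processed pseudogenes 31 were higher and 109 lower (median -0.23).

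When tested genes were split into quartiles by their change in control between 0 h and 3.5 h, the quartile that fell most in control had 1368 members higher and 839 lower at 1.5 h (median 0.12), the next had 1176 and 1081 (median 0.02), the next 1039 and 1348 (median -0.05), and the quartile that persisted most 1181 and 1116 (median 0.02). The split uses control libraries at other times than 1.5 h, so it shares no library with the comparison.

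Other lists at 1.5 h are given as counts. Of 28 cholesterol synthesis genes 2 were higher and 19 lower, of 24 glycolysis genes 5 and 12, of 31 tested proteasome genes (of 32) 2 and 23, and of 21 autophagy genes 8 and 4. With no count filter the interferon response had 10 higher and 3 lower of 34, nodal, BMP and WNT genes 7 and 10 of 31, small nucleolar host genes 7 and 8 of 26, and C2H2 zinc fingers 88 and 96 of 501. With ERCC scaling the autophagy list was 2 higher and 9 lower, and the interferon list 4 and 6 of the 24 past the filter.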
